A study of Mus musculus with 36 samples.

Results

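The natriuretic peptides, their receptors and corin make up 7 genes of the 32750 gene symbols in an expression table of mouse heart: the peptide genes Nppa, Nppb and Nppc, the receptor genes Npr1, Npr2 and Npr3, and Corin. They were taken by symbol, and each has 1 row in the table. RNA-seq was done on 36 libraries from CD-1 mice in 16 groups, from 3 kinds of preparation. The title places the series in the field of heart regeneration, so the groups set resected against sham-operated hearts, older against newborn hearts, and cultured against fresh adult cells. Isolated cardiomyocytes, purified on Miltenyi columns, gave 3 libraries each at P4, at P0 (postnatal day 0), and at day 7 after resection or sham surgery. Adult cardiomyocytes that were explanted and dissociated gave 2 libraries each at 0, 24, 48 and 72 h. Whole ventricle gave 2 libraries each at P0, P4, P7 and adult age, and at day 1 and day 7 after resection or sham surgery. All animals were of 1 strain, and the labels name no genetic change; the age at surgery, the age of the adults and any pooling of animals are not given in the sources used here. Every library carries the label cardiomyocytes, whole ventricle included, and the labels do not say whether replicates came from separate animals, so p-values measure the spread between libraries, which may be technical.

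Levels are in FPKM, fragment numbers scaled to transcript length and to library size. Between 10411 and 13075 gene models reached 1 FPKM in a library, replicates correlated at r = 0.907 to 0.993 on the log2 scale, and read depth is unknown. A list of 7 heart muscle markers, such as Myl2 and Tnni3, summed to 3607 to 26720 FPKM over all groups. They are called ventricular markers below, but their sums do not separate ventricular from atrial muscle. Summed levels of 8 endothelial markers were 488 to 1971 FPKM in whole ventricle, 51.4 to 1328 FPKM in isolated cells and 11.8 to 148 FPKM in explants. Macrophage and leukocyte marker sums in explants were 2.61 and 1.90 FPKM at 0 h, and 137 and 83.5 FPKM at 72 h. No preparation therefore held muscle RNA alone. In these bulk samples fewer cells of a type and less RNA per cell cannot be told apart. Xist, the RNA of the silenced X chromosome in females, was at most 0.173 FPKM in all explants, at most 0.164 FPKM in adult ventricle and 0.11 FPKM in 1 of 2 day 7 resection ventricles, against at least 11.8 FPKM in every other library, and its part in the results was not tested.

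Atrial natriuretic peptide (ANP, from Nppa) and brain natriuretic peptide (BNP, from Nppb) are hormones that heart muscle releases under stretch, and they lower blood pressure by promoting salt excretion and vessel relaxation. Corin, a serine protease on the cardiomyocyte surface, cuts pro-ANP into its active form. Both hormones act through the guanylyl cyclase receptor of Npr1, C-type natriuretic peptide (from Nppc) acts through that of Npr2, and Npr3 encodes the clearance receptor, which takes up all of these peptides. Nppa is high in fetal ventricle and in adult atrium, and both Nppa and Nppb are widely used as markers of cardiac stress.

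Nppa and Nppb are neighbours on chromosome 4. In mm9, the build of the deposited table, Nppb (ENSMUSG00000029019) spans chr4:147359896-147361314 and Nppa (ENSMUSG00000041616) chr4:147374830-147376188, with 13515 bases between them. Because their levels are compared below, the 250 bases before each transcription start are shown from RefSeq on GRCm38.p6, on the + strand, at chr4:148000472-148000721 for Nppa and chr4:147985650-147985899 for Nppb; all 7 members had a RefSeq promoter. The RefSeq gene record of Nppb starts at base 147985786, inside its window, so that window may cover part of a transcript. Capitals mark GATAA (GATA factors, either strand), AAGTG (the core of the NKX2-5 motif) and TATAAA (the TATA box).
Nppa: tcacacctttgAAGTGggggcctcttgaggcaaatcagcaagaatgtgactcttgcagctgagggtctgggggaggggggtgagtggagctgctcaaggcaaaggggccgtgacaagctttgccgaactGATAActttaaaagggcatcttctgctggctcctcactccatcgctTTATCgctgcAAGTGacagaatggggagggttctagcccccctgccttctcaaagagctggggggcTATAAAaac
Nppb: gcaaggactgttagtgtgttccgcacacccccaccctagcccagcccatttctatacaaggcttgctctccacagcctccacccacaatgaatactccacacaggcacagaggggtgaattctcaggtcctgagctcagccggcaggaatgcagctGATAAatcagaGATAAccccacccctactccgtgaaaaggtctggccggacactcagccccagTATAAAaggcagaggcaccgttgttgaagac
The Nppa window holds GATAA at 121 to 117 bases before the start, GATAA on the other strand at 75 to 71, AAGTG at 239 to 235 and at 65 to 61, and TATAAA at 9 to 4. The Nppb window holds GATAA at 94 to 90 and at 83 to 79, and TATAAA at 31 to 26, with no AAGTG on either strand. Of 32536 promoter windows of this length, 22.5% hold GATAA, 40.6% AAGTG and 12.3% TATAAA on either strand. CATTCC (the M-CAT motif of TEAD factors), in 12.6% of windows, was found in the Nppb window at 105 to 100 on the other strand and not in that of Nppa. The E-box CANNTG, in 66.2% of windows, lies in the Nppa window at 195 to 190 and at 66 to 61, where it overlaps an AAGTG, and in the Nppb window at 99 to 94, where it overlaps a GATAA by its last base. Neither window holds a CArG box (1.48% of windows). GATAA matched in none of the other 5 members' windows. These matches describe letters only.

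Nppa and Nppb were among the most abundant transcripts, and the 2 genes followed different patterns over the groups. Nppa ranged over the 36 libraries from 35.9 to 602 FPKM (median 234 FPKM) and Nppb from 20.8 to 810 FPKM (median 106 FPKM). Group means of Nppa ran from 494 ± 98.7 FPKM in isolated cells at day 7 after resection (SD, n = 3) to 53.6 ± 25.3 FPKM in isolated cells at day 7 after sham surgery (SD, n = 3), with neighbours in this order overlapping in 14 of 15 pairs. Group means of Nppb ran from 621 ± 41.9 FPKM in explants at 48 h (SD, n = 2) to 32.7 ± 12.01 FPKM in isolated cells at day 7 after sham surgery (SD, n = 3), with neighbours overlapping in 13 of 15 pairs. Nppb was above Nppa in 0 of 12 isolated libraries, 8 of 8 explant libraries and 4 of 16 ventricle libraries. Over the 16 group means, log2 levels of Nppa and Nppb correlated at r = 0.057, a description of groups that differ in preparation. Nppc stayed under 1 FPKM in all 36 libraries, was listed at 0 in 16 of them and peaked at 0.501 FPKM, so it was not tested in any comparison.

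**Figure D1:**
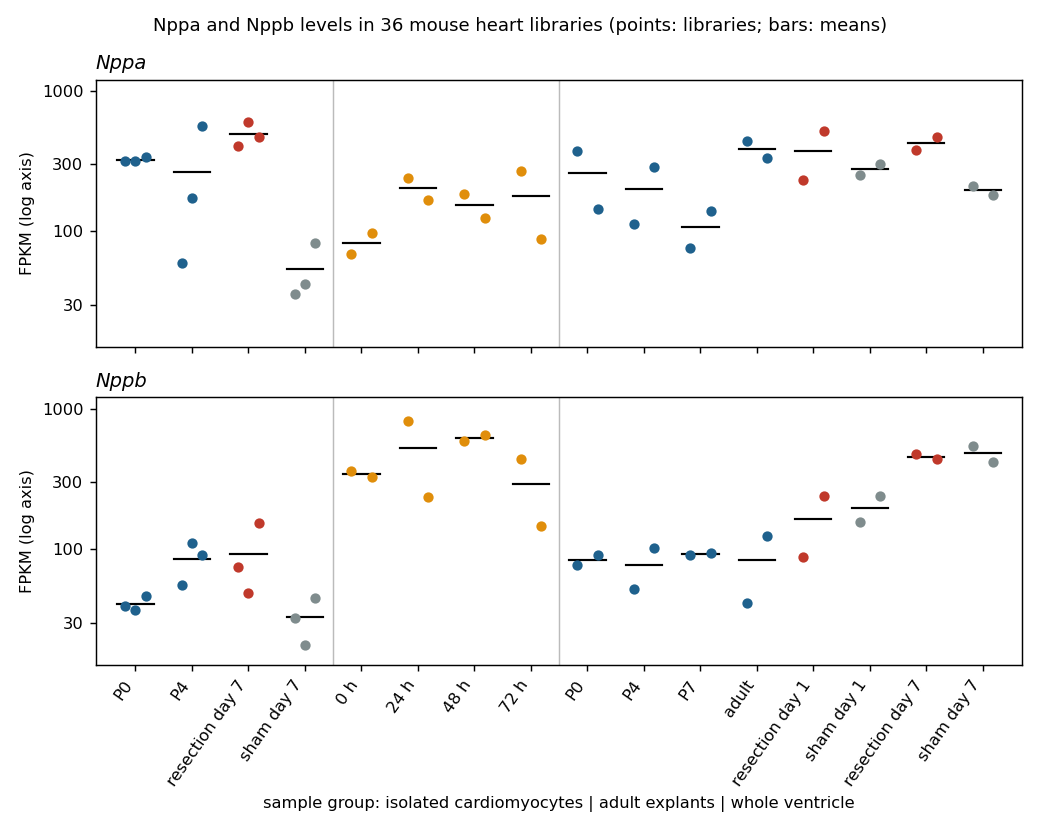
FPKM (log axis) of Nppa (top) and Nppb (bottom) in each of the 36 libraries by group; points are libraries, bars are group means, red marks resection, grey sham surgery, orange explants and blue unoperated groups. In isolated cells at day 7 Nppa lies between 408 and 602 FPKM after resection, above 35.9 to 82.6 FPKM after sham surgery, and in explants Nppb lies between 146 and 810 FPKM.

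Differences are given as log2(FPKM + 1), tested group minus its comparison group, from limma's moderated test over all genes, and called where the Benjamini-Hochberg adjusted p was under 0.05. In each comparison 6 members were tested, and the share of all genes called is given beside the members' count, first in both directions and then in the direction of the members. In isolated cells at day 7, 1 of 6 members, Nppa, was higher after resection than after sham surgery, where 1.09% of all genes were called and 1.08% were higher. At P4 against P0 in isolated cells 0 of 6 members were called by limma (1 of 6 at an unadjusted p under 0.05), where 0.00765% of genes were called. In ventricle at P7 against P0, 2 of 6 members were lower, Npr3 and Corin (12.7% of genes called, 8.28% lower). In adult against P0 ventricle 2 of 6 were lower, Npr1 and Npr3, and 1 was higher, Corin (57.2% called, 43.8% lower and 13.4% higher). At day 1 after resection against sham surgery 2 of 6 were lower, Npr1 and Npr2 (10.3% called, 8.91% lower), and at day 7 limma called 0 of 6 (2 of 6 at an unadjusted p under 0.05; 0.162% of genes called). In explants 1 of 6 was lower at 24 h against 0 h, Corin (18.1% called, 2.60% lower), and 3 of 6 were lower at 72 h against 0 h, Npr1, Npr3 and Corin (56.0% called, 9.10% lower). In fresh explants against adult ventricle 2 of 6 were lower, Nppa and Npr3, and 1 was higher, Nppb (33.8% called, 32.0% lower and 1.81% higher). In isolated P0 cells against P0 ventricle 3 of 6 were lower, the 3 receptors (54.7% called, 54.0% lower). The median gene moved by -0.36 in adult ventricle, by 0.76 at 72 h, by -0.38 in fresh explants and by -0.57 in isolated P0 cells on the log2 scale. In the values as deposited, a lower value was therefore common among all genes in the adult and between-preparation comparisons, and at 72 h it was not. Under median-of-ratios scaling more of the genes called at 72 h were lower than higher, so the 9.10% holds only for the values as deposited.

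**Figure D2:**
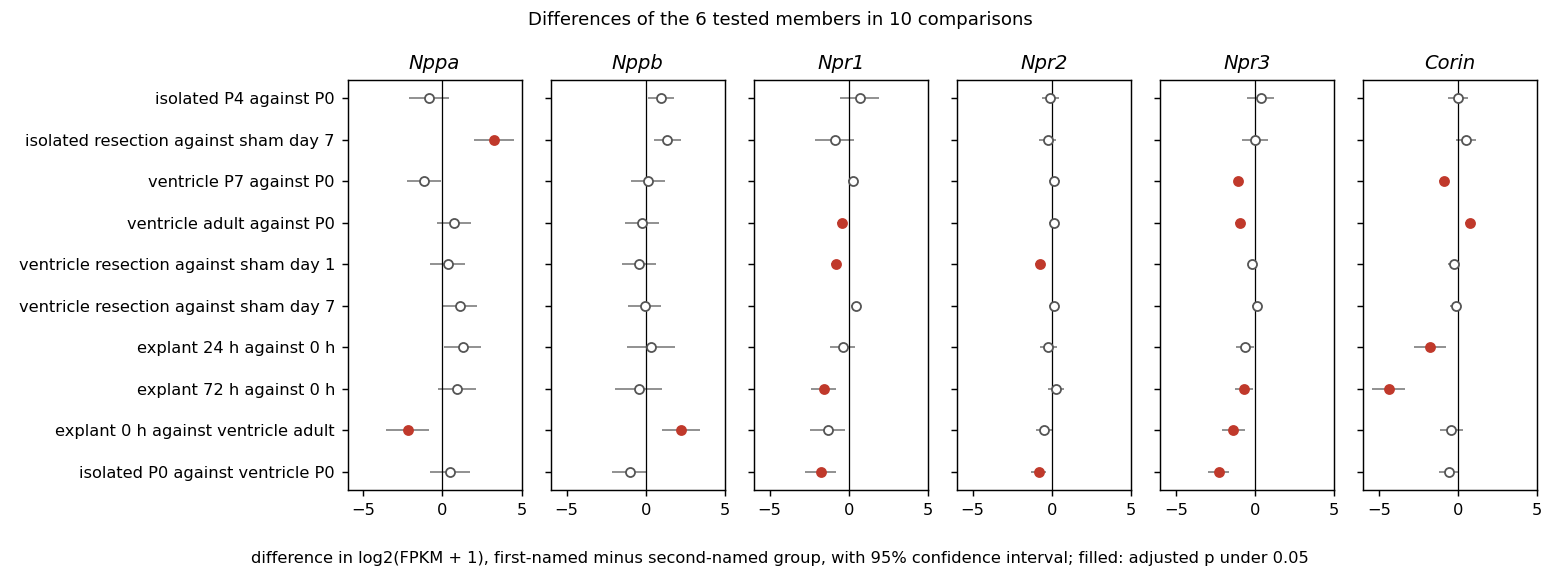
Log2 difference (FPKM + 1) of 6 members in 10 comparisons, with 95% confidence intervals from limma; filled points passed an adjusted p of 0.05. The widest called differences are the fall of Corin at 72 h, by 4.39, and the rise of Nppa after resection in isolated cells, by 3.26.

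Nppa rose after resection in isolated cardiomyocytes. The 3 libraries held 408, 602 and 473 FPKM at day 7 after resection, against 35.9, 42.2 and 82.6 FPKM after sham surgery. Every resection library lay above every sham library, a difference of 3.26 ± 0.59 (log2, SE; limma adjusted p = 0.0195). The call was lost without resection replicate 3 (adjusted p = 0.0587), without sham replicate 1 (0.124) and without sham replicate 2 (0.131), and under quantile normalization (0.0506), while the difference stayed between 3.02 and 3.61 in all leave-one-out fits. Nppb held 74.8, 49.0 and 153 FPKM after resection, against 32.3, 20.8 and 44.9 FPKM after sham surgery. Its groups did not overlap either, but the difference of 1.38 ± 0.38 did not pass (adjusted p = 0.125). Nppc, untested, was at 0.109, 0.501 and 0.480 FPKM after resection, against 0, 0.064 and 0.096 FPKM after sham surgery.

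Markers of other cells also differed between these isolated cells. The 9 atrial markers summed to 370, 792 and 313 FPKM after resection, against 19.3, 28.1 and 29.2 FPKM after sham surgery, and 4 of 9 were called higher, Myl7, Myl4, Sln and Stard10 (list median 2.17, all genes 0.13). Myl7, the atrial myosin light chain, was at 181, 390 and 167 FPKM after resection, against 1.22, 6.46 and 3.35 FPKM after sham surgery. The 8 lung epithelial markers summed to 182 to 1185 FPKM after resection, against 0.435 to 3.19 FPKM after sham surgery, and 8 of 8 were called higher. Erythroid (red blood cell) marker sums were 10250, 4952 and 72170 FPKM after resection, against 3746, 4075 and 5274 FPKM after sham surgery. Of these erythroid markers 0 of 7 were called by limma. Fibroblast marker sums were 724.5, 1674 and 680 FPKM after resection, against 129, 179 and 917 FPKM after sham surgery, with 0 of 8 called (list median 1.67). Epicardial markers had a list median of 0.998 with 0 of 6 called, and 1 of 4 macrophage and leukocyte markers was called higher. Endothelial markers went the other way, with a list median of -1.94 and 0 of 8 called. The part of all these markers in the Nppa difference and in the Nppc levels was not tested.

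In whole ventricle the same operation gave smaller differences that did not pass. At day 7 Nppa was at 382 and 470 FPKM after resection, against 212 and 182 FPKM after sham surgery, a difference of 1.11 ± 0.50 (adjusted p = 0.45). The groups did not overlap, and the atrial marker sums were 39.3 and 34.4 FPKM after resection, against 31.0 and 33.3 FPKM after sham surgery, with 0 of 9 called by limma. Lung markers were higher here too, at 98.2 to 220 FPKM after resection, against 2.57 to 26.7 FPKM after sham surgery. The Nppa effect in isolated cells exceeded that in ventricle by 2.15 ± 0.86, which did not pass as a difference (adjusted p = 0.518; 0 of 6 members were called by limma and 1 of 6 had an unadjusted p under 0.05, where 0.0809% of genes were called). Nppb at day 7 was at 473 and 437 FPKM after resection, against 542 and 419 FPKM after sham surgery, so the groups overlapped. At day 1 Nppa was at 230 and 517 FPKM after resection, against 251 and 303 FPKM after sham surgery, and Nppb at 88.2 and 238 FPKM, against 156 and 237 FPKM; both pairs overlapped.

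Neither peptide gene was called as the heart grew. In isolated cells at P4 Nppa spread over 59.3, 174 and 567 FPKM, against 318, 317 and 336 FPKM at P0, and Myl7 spread over 8.27 to 376 FPKM in the same P4 libraries. Nppb was at 55.3, 110 and 90.4 FPKM at P4, against 39.3, 37.0 and 46.5 FPKM at P0. All 3 P4 libraries lay above all P0 libraries for Nppb, with a difference of 0.99 ± 0.38 that did not pass (adjusted p = 1). In ventricle Nppa was at 76.2 and 139 FPKM at P7 and at 443 and 331 FPKM in adults, against 375 and 143 FPKM at P0. The P7 difference was -1.17 ± 0.50 (adjusted p = 0.147) and the adult difference 0.72 ± 0.50 (adjusted p = 0.239). Atrial marker sums in ventricle were 29.1 to 53.0 FPKM at P7 and 31.2 to 34.6 FPKM in adults, against 951 and 240 FPKM at P0, so the adult ventricle combined high Nppa with little atrial marker RNA. Nppb was at 90.2 and 93.2 FPKM at P7 and 41.5 and 125 FPKM in adults, against 77.4 and 90.0 FPKM at P0.

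Freshly explanted adult cells differed from adult ventricle in both peptide genes, in opposite directions. Nppa was at 69.3 and 96.7 FPKM in explants at 0 h, against 443 and 331 FPKM in adult ventricle, lower by 2.21 ± 0.67 (adjusted p = 0.0132). Nppb was at 361 and 328 FPKM in explants at 0 h, against 41.5 and 125 FPKM in adult ventricle, higher by 2.24 ± 0.58 (adjusted p = 0.00506) while the median gene was lower by 0.38. The Nppb call was lost without adult replicate 1 (adjusted p = 0.129), and the Nppa call without explant replicate 1 (0.0699), without adult replicate 1 (0.0892) and under quantile normalization (0.0525). In culture neither gene was called. Nppa was at 238 and 168 FPKM at 24 h, 184 and 124 FPKM at 48 h and 269 and 88.0 FPKM at 72 h, and Nppb at 810 and 235, at 592 and 651 and at 440 and 146 FPKM at the same times. Both 24 h libraries lay above both 0 h libraries for Nppa, a difference of 1.28 ± 0.51 (adjusted p = 0.117). Without 72 h replicate 2, the 72 h difference of Nppa was 1.71 and passed (adjusted p = 0.0142), against 0.90 with all libraries (adjusted p = 0.161).

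Corin, the protease that activates pro-ANP, fell in culture. It was at 9.06 and 8.82 FPKM at 24 h, 4.66 and 2.001 FPKM at 48 h and 0.736 and 0.557 FPKM at 72 h, against 51.5 and 21.8 FPKM at 0 h. Each later time lay below the one before, and the 72 h difference was -4.39 ± 0.44 (adjusted p = 0.000566), called under every alternative run. The fall at 24 h, -1.80 ± 0.44 (adjusted p = 0.0328), was lost with no filter (0.10), without either 24 h library (0.136 and 0.126) and without 0 h replicate 1 (0.115). Ventricular muscle markers fell over the same times, with summed levels of 3844 and 3607 FPKM at 72 h, against 24000 and 20000 FPKM at 0 h, and 5 of 7 were called lower at 72 h (list median -2.17). Macrophage and leukocyte marker sums rose to 137 and 83.5 FPKM at 72 h, against 2.61 and 1.90 FPKM at 0 h. The part of these markers in the Corin fall was not tested. Myh6 was listed at 0 in 1 of the 0 h libraries, so a single listed 0 in this table can be a failed estimate.

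In ventricle Corin was lower at P7 and higher in adults than at P0. It was at 14.5 and 13.0 FPKM at P7 and at 38.3 and 53.6 FPKM in adults, against 25.4 and 28.2 FPKM at P0. The P7 difference was -0.91 ± 0.15 (adjusted p = 0.00207) and the adult difference 0.74 ± 0.15 (adjusted p = 0.00116), and both were called under every alternative run. The groups did not overlap, and the ventricular marker sums were 19740 to 20080 FPKM at P7 and 21660 to 21900 FPKM in adults, against 18050 to 20550 FPKM at P0. Of these 7 markers 1 was called lower at P7 (1 and 3 under the other scalings). In adults 2 were called higher and 1 lower (list median 0.43, all genes -0.36). Median-of-ratios scaling gave 5 higher and 1 lower in adults, and quantile normalization 0 higher and 3 lower. The part of these markers in the Corin differences was not tested. After resection Corin was at 20.7 and 18.4 FPKM at day 1, against 24.2 and 24.0 FPKM after sham surgery, and at 11.7 and 11.7 FPKM at day 7, against 12.4 and 14.1 FPKM. All resection libraries lay below their sham libraries at both days, without passing (adjusted p = 0.227 and 0.756). In isolated cells Corin ranged from 6.03 to 27.1 FPKM, and neither comparison passed.

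**Figure D3:**
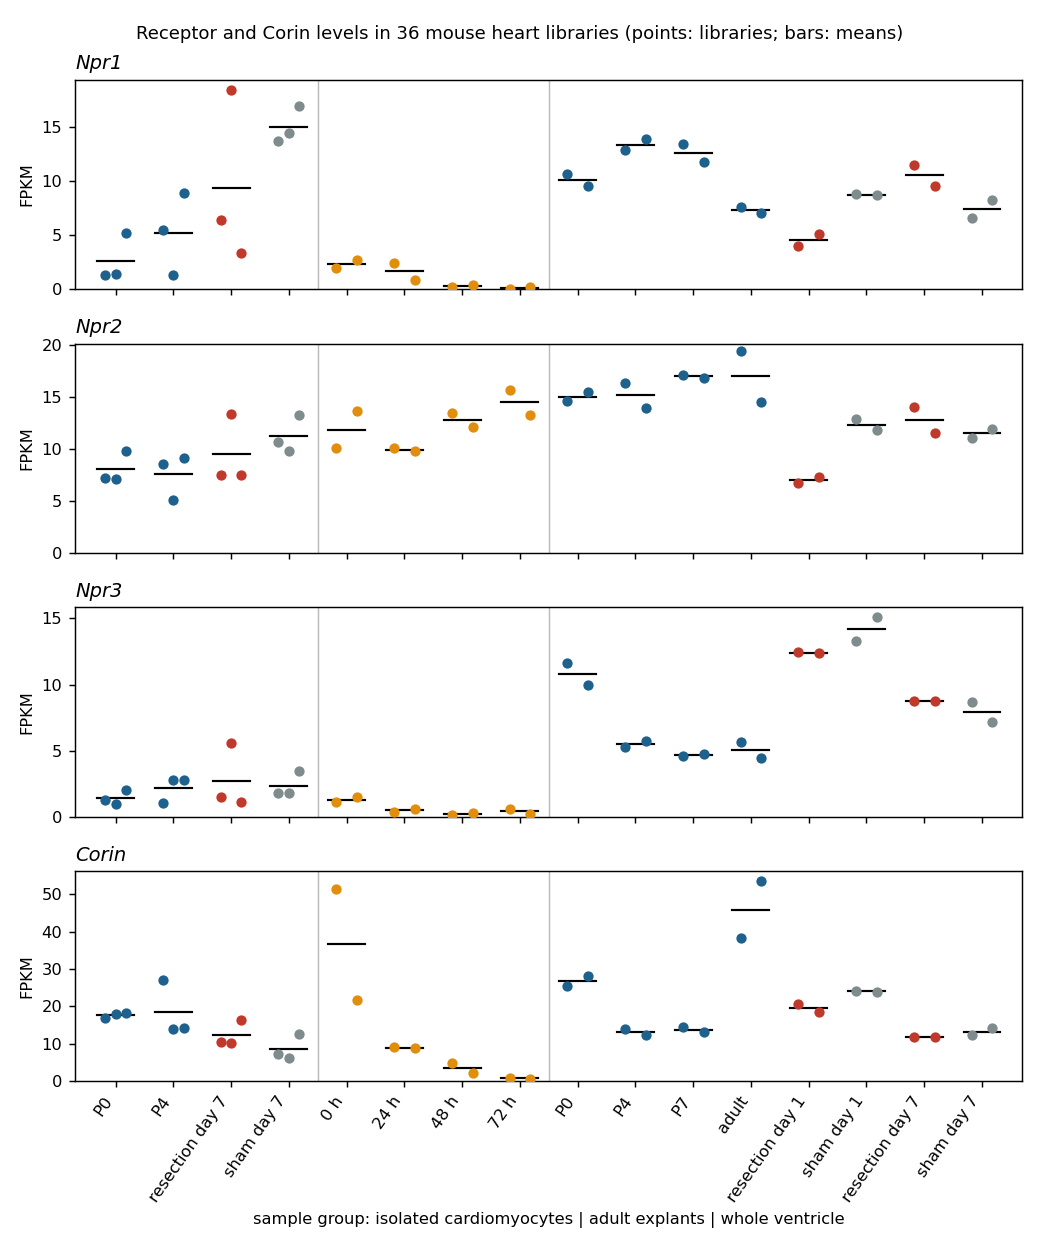
FPKM of Npr1, Npr2, Npr3 and Corin in each library by group; points are libraries and bars group means, with the same group order and colours as in the plot of the peptide genes. Npr3 lies between 4.46 and 15.1 FPKM in ventricle and below 1.5 FPKM in explants, and Corin falls through the 4 culture times.

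The guanylyl cyclase receptors fell at day 1 after resection in ventricle. Npr1, the receptor of ANP and BNP, was at 3.99 and 5.07 FPKM after resection, against 8.81 and 8.68 FPKM after sham surgery, a difference of -0.82 ± 0.15 (adjusted p = 0.00655). Npr2, the receptor of C-type natriuretic peptide, was at 6.74 and 7.31 FPKM after resection, against 12.8 and 11.8 FPKM after sham surgery, a difference of -0.73 ± 0.15 (adjusted p = 0.0119). Neither pair of groups overlapped, and the median gene moved by -0.16 in this comparison. The Npr1 call was lost, among all alternatives run, only without sham replicate 2 (adjusted p = 0.0514). The Npr2 call was lost without resection replicate 1 (0.0594), without either sham library (0.0559 and 0.061) and under quantile normalization (0.0623). Npr3, the clearance receptor, was at 12.4 and 12.4 FPKM after resection, against 13.3 and 15.1 FPKM after sham surgery, and did not pass (adjusted p = 0.42). Endothelial marker sums were 832 and 1255 FPKM after resection, against 1379 and 1971 FPKM after sham surgery, with 2 of 8 called lower, Tie1 and Fabp4, and 0 of 8 under each other scaling. Macrophage and leukocyte markers moved more, with sums of 34.5 and 38.3 FPKM after resection, against 78.2 and 117 FPKM after sham surgery, and 5 of 8 called lower here and under each other scaling. Of 8 smooth muscle and pericyte markers 3 were called lower (2 and 1 under the other scalings), with sums of 171 and 204 FPKM after resection, against 211 and 192 FPKM after sham surgery. The part of these cells in the receptor differences was not tested.

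At day 7 the receptor differences pointed the other way or were small. Npr1 was at 11.5 and 9.57 FPKM after resection, against 6.53 and 8.26 FPKM after sham surgery, and the difference of 0.46 ± 0.15 did not pass (adjusted p = 0.271). Npr2 was at 14.0 and 11.5 FPKM after resection, against 11.1 and 11.9 FPKM after sham surgery, so the groups overlapped. The resection effect was more positive at day 7 than at day 1 by 1.28 ± 0.21 for Npr1 (adjusted p = 0.00538) and by 0.86 ± 0.21 for Npr2 (adjusted p = 0.0322). In size it was smaller at day 7, at 0.46 against -0.82 for Npr1 and 0.13 against -0.73 for Npr2. These were 2 of 6 members, where 5.91% of genes were called, 5.66% with a more positive effect at day 7, and the median gene moved by 0.27. The Npr1 difference was called under every alternative run; that of Npr2 was lost under both other scalings and in 6 of 8 leave-one-out fits. Over the same contrast 5 of 8 macrophage and leukocyte markers (list median 1.28, with 3 and 2 called under the other scalings) had a more positive effect at day 7. So did 5 of 6 lung epithelial markers (list median 2.30, with 3 called under each). The part of these markers in the receptor differences was not tested. In isolated cells at day 7 Npr1 was at 6.41, 18.4 and 3.34 FPKM after resection, against 13.6, 14.4 and 16.9 FPKM after sham surgery. These overlapped (adjusted p = 0.556), and the endothelial sums in the same libraries were 476, 975 and 51.4 FPKM after resection, against 1206 to 1328 FPKM after sham surgery.

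Npr3 fell as the ventricle grew. It was at 4.64 and 4.75 FPKM at P7 and at 5.63 and 4.46 FPKM in adults, against 11.6 and 9.97 FPKM at P0. The groups did not overlap; the difference was -1.05 ± 0.14 at P7 (adjusted p = 0.000393) and -0.97 ± 0.14 in adults (adjusted p = 6.87e-05), both called under every alternative run. P4 ventricle, which entered no comparison, was at 5.30 and 5.75 FPKM. Endocardial marker sums were lower too, at 14.2 and 13.0 FPKM at P7 and 15.6 and 19.9 FPKM in adults, against 36.4 and 26.5 FPKM at P0. Of 4 endocardial markers 2 were called lower at each age under every scaling, while 1 was called higher in adults under every scaling. Epicardial sums were 34.4 and 35.9 FPKM at P7 and 28.2 and 19.9 FPKM in adults, against 55.8 and 40.7 FPKM at P0, with 4 of 6 called lower at P7 (1 and 3 under the other scalings) and 3 of 6 in adults. Their part in the Npr3 difference was not tested. Npr1 was at 13.4 and 11.7 FPKM at P7 and at 7.58 and 7.08 FPKM in adults, against 10.6 and 9.54 FPKM at P0. The adult difference of Npr1, -0.41 ± 0.15 (adjusted p = 0.0289), was close to the median gene's -0.36 and was -0.05 under median-of-ratios scaling (0.778) and -0.02 under quantile normalization (0.923); it was also lost without either adult library (0.0648 and 0.127) and without P0 replicate 1 (0.142). Npr2, at 19.4 and 14.5 FPKM in adults, against 14.6 and 15.5 FPKM at P0, was not called (0.15 ± 0.15, adjusted p = 0.396), but was called higher under both scalings, by 0.53 and 0.48.

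In culture Npr1 and Npr3 fell and Npr2 did not pass. Npr1 was at 2.45 and 0.849 FPKM at 24 h, 0.166 and 0.382 FPKM at 48 h and listed at 1.17e-08 and 0.201 FPKM at 72 h, against 1.93 and 2.73 FPKM at 0 h. The 72 h difference was -1.59 ± 0.33 (adjusted p = 0.00621), called under every alternative run. Npr3 was at 0.605 and 0.233 FPKM at 72 h, against 1.13 and 1.49 FPKM at 0 h, a difference of -0.71 ± 0.24 (adjusted p = 0.036) at levels close to the pseudocount of 1. That call was lost with a pseudocount of 0.1 (0.0695) and without 72 h replicate 2 (0.128). Npr2 was at 15.6 and 13.3 FPKM at 72 h, against 10.1 and 13.6 FPKM at 0 h, with a difference of 0.28 ± 0.22 that was -0.53 and -0.48 under the other scalings and passed in none. Endothelial markers went down over the same times, with 4 of 8 called lower at 72 h (list median -1.09) and 7 of 8 under each other scaling (medians -1.74 and -1.78). Their sums were 14.3 to 24.8 FPKM at 72 h, against 79.4 to 148 FPKM at 0 h. Of smooth muscle and pericyte markers 2 of 4 were called lower as deposited. Other lists rose as deposited, with 3 of 3 macrophage and leukocyte markers (list median 2.66) and 4 of 5 epicardial markers (1.21) called higher, against 0.76 for all genes. The part of all these markers in the receptor differences was not tested.

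Of the receptors, Npr3 was lower in purified cells than in whole ventricle under both other scalings at P0, and the calls of the other two were not kept. At P0 Npr3 was at 1.28, 1.003 and 1.999 FPKM in isolated cells, against 11.6 and 9.97 FPKM in ventricle, a difference of -2.30 ± 0.32 (adjusted p = 2.18e-05) called under every alternative run. Npr1 was at 1.35, 1.37 and 5.20 FPKM in isolated cells, against 10.6 and 9.54 FPKM in ventricle (-1.77 ± 0.48, adjusted p = 0.00424). Npr2 was at 7.22, 7.12 and 9.78 FPKM in isolated cells, against 14.6 and 15.5 FPKM in ventricle (-0.84 ± 0.22, adjusted p = 0.00325). All groups were apart, yet nearly all genes called here were lower, the median gene moved by -0.57, and the Npr1 and Npr2 calls were lost under median-of-ratios scaling (0.122 and 0.584) and quantile normalization (0.144 and 0.621). In the adult pair, Npr3 was at 1.13 and 1.49 FPKM in explants at 0 h, against 5.63 and 4.46 FPKM in ventricle, a difference of -1.38 ± 0.35 (adjusted p = 0.00408) that was lost under quantile normalization (0.129). Endothelial markers were lower too, with 8 of 8 called in isolated P0 cells (1 of 8 under each other scaling) and sums of 55.3 to 287 FPKM, against 598 to 668 FPKM in P0 ventricle. As deposited, 4 of 4 endocardial, 7 of 8 fibroblast and 7 of 8 macrophage and leukocyte markers were also called lower. Erythroid markers went the other way, with 4 of 7 called higher. Their sums were 21040, 20730 and 989 FPKM in isolated P0 cells, against 1381 and 1237 FPKM in P0 ventricle. The part of all these markers in the receptor differences and in the shift of the median gene was not tested.

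The makeup of receptor RNA, as shares of FPKM, differed among preparations. Levels of different genes were set side by side here because FPKM scales to transcript length. Npr2 was above Npr1 in 32 of 36 libraries and above Npr3 in 32 of 36, and its highest group mean was 2.41 times its lowest, against 64.4 times for Npr3. In explants Npr2 made up 76.7 and 76.3% of the summed receptor FPKM at 0 h and 96.3 and 96.8% at 72 h. Npr3 made up 53.7 and 50.0% at day 1 after resection, against 38.1 and 42.4% after sham surgery, the highest Npr3 shares of any group. Isolated cells at day 7 after sham surgery stood out by Npr1, at 50.2 to 55.4% of the sum. Endothelial marker sums in the same libraries were 1206 to 1328 FPKM, and their part in these shares was not tested.

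**Figure D4:**
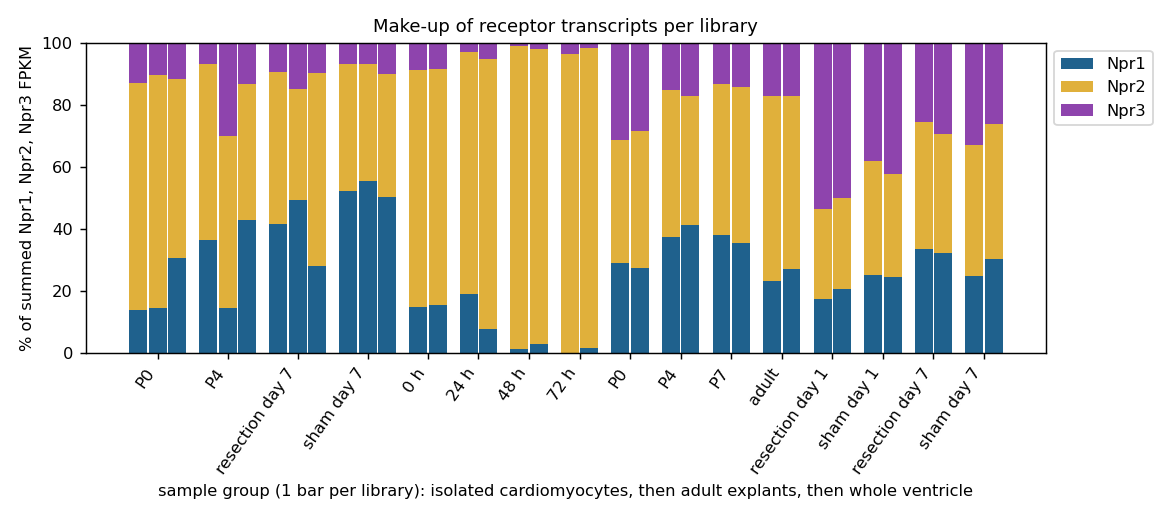
Share (percent) of the summed FPKM of the 3 receptors taken by Npr1, Npr2 and Npr3 in each library. Npr2 takes 96.3 and 96.8% in explants at 72 h, and Npr3 takes 53.7 and 50.0% in ventricle at day 1 after resection.

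Other genes of the pathway were followed in 4 lists: peptide processing and clearance, cGMP signalling, cardiac transcription factors, and stress and fetal muscle genes. The cGMP list holds soluble cyclases, kinases and phosphodiesterases, and also genes of other kinds such as Rgs2, Rgs4, Vasp and Nos3. In ventricle after resection 0 of 14 tested cGMP genes were called by limma at day 1 and 0 of 14 at day 7, where 10.3% and 0.162% of all genes were called. At day 1 the transcription factor genes Nkx2-5 (-1.37) and Tbx3 (-0.70), 2 of 18, and the stress genes Timp1 (-2.15) and Tnc (-0.98), 2 of 10, were lower, and limma called 0 of 4 processing genes; under each other scaling 1 transcription factor and 1 stress gene were lower and 2 processing genes higher. At day 7 no gene of the 4 lists was called. In isolated cells at day 7, where 1.08% of all genes were higher, Tbx2 was higher (1.01, 1 of 18, and 2 of 18 under each other scaling). Of 4 processing genes 0 were called there, and 1 was higher under median-of-ratios scaling. The stress genes Ankrd1 (1.12) and Tnc (1.96) were higher too (2 of 12). At P4 against P0 no gene of the 4 lists was called, but 1 of 12 stress genes was higher under quantile normalization.

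As background to the counts with growth, 12.7% of all genes were called at P7, 8.28% as lower and the rest as higher. In adults 43.8% were lower and 13.4% higher. The processing genes Pcsk6, a convertase that activates corin, and Mme, the peptide-degrading neprilysin, were higher at P7 (1.51 and 0.97) and in adults (0.99 and 1.69), while Ide (-0.996) and Dpp4 (-1.04), 2 more peptidases, were lower in adults, with 2 of 4 higher under each scaling at both ages. Of 14 cGMP genes 1 was higher at P7 (Rgs4, 1.21; 2 and 4 under the other scalings), and in adults 2 were higher (Rgs4 1.01, Rgs2 0.54) and 8 lower, among them the soluble cyclase subunit Gucy1a3 (-1.70) and Vasp (-1.30); 6 were lower under each other scaling. Of 18 transcription factor genes 8 were lower at P7 (with Hey2 -2.99) and 12 in adults, and 4 to 7 and 10 under the other scalings. Of 10 stress and fetal genes, 1 was higher (Xirp2, 3.59) and 2 lower (Tnni1 -2.75, Myh7 -1.58) at P7, and 2 were higher and 4 lower in adults, where median-of-ratios scaling turned this to 4 higher and 3 lower.

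Of all genes 18.1% were called at 24 h, 2.60% as lower, and 56.0% at 72 h, 9.10% as lower. In culture at 24 h, Rgs2 (-2.45; 1 of 6 cGMP genes) and Myocd (-1.42; 1 transcription factor) were lower, Gdf15 (6.61) and Timp1 (2.33) were among 3 stress genes higher, and Acta2 (-3.60) and Actc1 (-1.38) were lower. At 72 h Vasp was higher (1.16) and 3 cGMP genes lower (with Pde2a -1.27 and Pde3a -1.25); Vasp was the 1 gene of the list called higher, and none was under the other scalings, where 3 or 4 were lower. Among stress genes 5 were higher (Gdf15 7.40, Timp1 4.02) and 3 lower (Actc1 -5.57, Acta2 -4.66) at 72 h, turned to 2 higher and 3 lower under median-of-ratios scaling. Of 15 transcription factor genes 1 was higher at 72 h (Rest, 1.36) and 4 lower (with Mef2c -1.60 and Myocd -1.04), and 7 were lower and none higher under each other scaling. Limma called 0 of 2 processing genes at either culture time, and 1 of 2 lower at 72 h under each other scaling. Between preparations 32.0% of all genes were lower and 1.81% higher in fresh explants, and 54.0% were lower in isolated P0 cells. Of 14 cGMP genes 9 were lower in fresh explants than in adult ventricle (8 and 6 under the other scalings), with Rgs4 (-2.48) and Gucy1b3 (-1.76). Pcsk6 (-3.56) was the 1 processing gene lower there. Also lower were 10 of 18 transcription factors, with Klf13 (-1.82) and Hand2 (-1.47), 6 and 5 under the other scalings; of 12 stress genes 3 were higher (with Rcan1 2.35 and Ankrd1 1.75) and Tnni1 was lower (-1.05). In isolated P0 cells 12 of 14 were lower than in P0 ventricle, led by Nos3 (-2.56) and Pde2a (-2.08), but 2 and 1 under the other scalings. Also lower there were 3 of 4 processing genes (with Pcsk6 -2.26), 13 of 18 transcription factors and 3 of 12 stress genes, against 0, 2 or 0, and 1 or 2 under the other scalings.

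The genes most like each member over the 16 group means were ranked by Pearson's r of log2(FPKM + 1), among 8993 genes (8994 for Nppc), as a description of groups that share preparations. Npr1 was closest to Pde2a (r = 0.979), Cdh5 (0.975) and Arap3 (0.974); Cdh5, the endothelial cadherin, is in the endothelial marker list. Npr3 was closest to Entpd1 (0.964), Lcp1 (0.956) and Wee1 (0.955), and Npr2 to Sidt2 (0.871) and Ptger1 (0.859). Corin was closest to Epha4 (0.953), Pln (0.949), the regulator of the sarcoplasmic calcium pump, and Mylk3 (0.936), the cardiac myosin light chain kinase. Nppb was closest to Ndufa1 (0.90), Bccip (0.881) and Lmod2 (0.875). Nppa had the weakest likeness, to Wnt5a (0.765), Enpep (0.687) and Gde1 (0.667). Nppc, at its low level, was closest to Col6a5 (0.937), Napsa (0.904) and Tbata (0.879). Napsa is in the lung epithelial marker list, which was higher in isolated cells at day 7 after resection, the group with the highest Nppc mean. Among the members, Npr1 and Npr3 correlated at 0.744, Npr3 and Corin at 0.577 and Npr1 and Corin at 0.563.

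**Figure D5:**
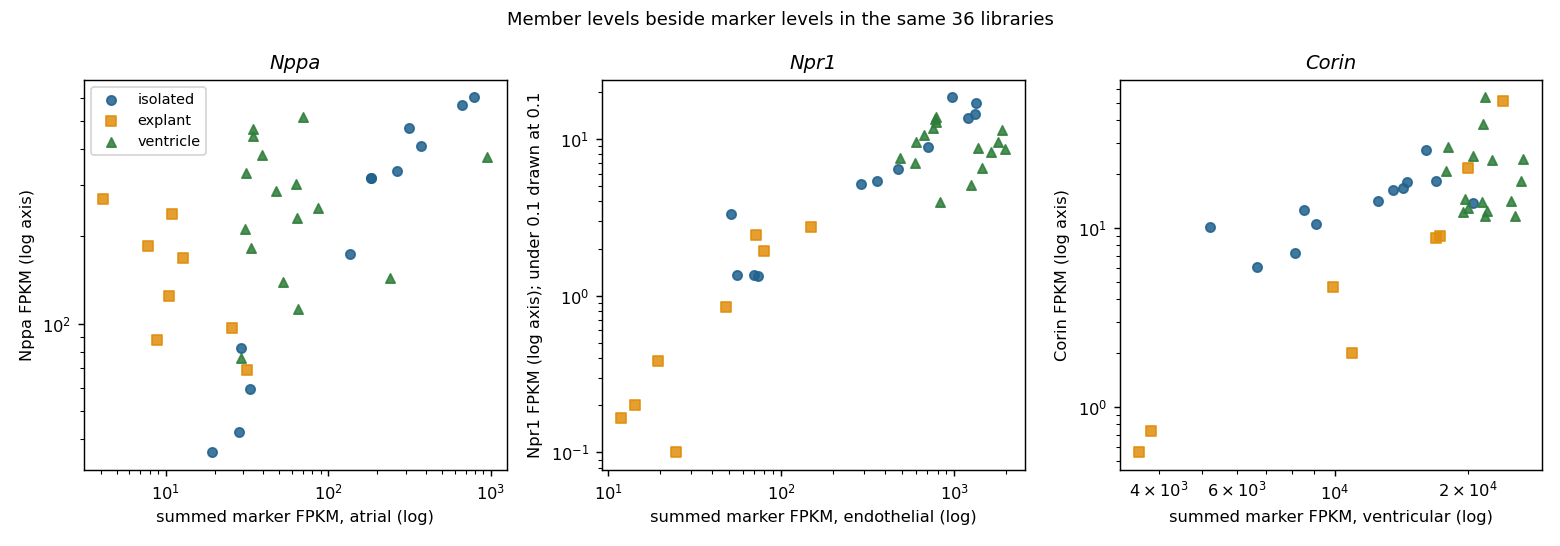
Levels of Nppa, Npr1 and Corin (FPKM, log axis) against the summed FPKM (log axis) of atrial, endothelial and ventricular marker genes in the same 36 libraries, by preparation; each point is 1 library and Npr1 under 0.1 FPKM is drawn at 0.1. Explants with atrial sums of 4.12 to 31.5 FPKM hold Nppa at 69.3 to 269 FPKM, while Npr1 is low where endothelial sums are low, with Npr1 at most 0.382 FPKM at 48 and 72 h.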

How the data were processed

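RNA-seq libraries were made from Trizol-extracted total RNA and run on a GA-2 or Hi-Seq instrument, per the labels' protocols. The deposited values are FPKM that the authors made on mm9; the tools named, per the submitters' processing notes, are Cufflinks 1.2.1, TopHat 1.3.2, Bowtie 0.12.7 and Cuffdiff (no version); the annotation is not given in the sources used here. The 36128 gene models were reduced to the row with the highest mean for each of 32750 symbols. Read depth is unknown, 7909 positive values lay under 1e-06 FPKM, and no count model was used.

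Values were taken as log2(FPKM + 1), which understates changes of low genes. Models of group means were fitted with limma 3.58.1 (R 4.3.3) over the libraries of each preparation, or over all 36 libraries between preparations, for genes at 1 FPKM or more in 2 or more libraries, and checked on simulated data. Tests were two-sided, with Benjamini-Hochberg adjustment over all genes tested. Alternatives were a pseudocount of 0.1, no filter, 2 other scalings, a replicate block and leaving out each library.

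The members and gene lists were chosen with earlier results of these data known. The text names the members, at most 2 higher and 2 lower called genes per list and comparison, marker genes called, and the 3 genes most like each member; a few items are not reported here. Some list genes, among them Furin and Tead1, were not analysed here.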

Additional observations from a re-analysis of the deposited data

Results flagged for a closer look

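In whole ventricle the resection effects of Npr1 and Npr2 differed between day 7 and day 1, and that of Npr3 had opposite signs at the 2 days without passing the test. For Npr1 the effect was 0.46 at day 7 and -0.82 at day 1 on the log2 scale, and the interaction of 1.28 ± 0.21 passed (limma adjusted p = 0.00538). For Npr2 the effect was 0.13 at day 7 and -0.73 at day 1, and the interaction of 0.86 ± 0.21 passed (limma adjusted p = 0.0322). That call was lost under both other scalings and in most leave-one-out fits. For Npr3 both resection libraries lay above both sham libraries at day 7 and below them at day 1, with an interaction of 0.30 ± 0.19 that did not pass (limma adjusted p = 0.336). The sign of the Npr3 effect at day 1 changed under both other scalings, and its sign at day 7 changed under quantile normalization. In the ventricle libraries 1 of 2 day 7 resection hearts had Xist at 0.11 FPKM and the other at 23.0 FPKM, and the part of sex was not tested.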

How the results depend on the processing

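Of 734 values of single members under alternatives, 649 kept their direction and their side of the threshold, 37 lost a call, 11 gained one and 37 changed sign; of 123 counts of called genes, 59 stayed within 1.5 times. The cause of these changes was not tested. With no filter the counts were 6 genes called at P4 against P0 in isolated cells, 271 after resection there, 77 in ventricle at day 7, 1061 in explants at 24 h and 127 for the isolated against the ventricle effect. With a pseudocount of 0.1, 1 gene was called in ventricle at day 7. With median-of-ratios scaling the counts were 3 at P4, 4387 in explants at 72 h, 1036 for isolated against ventricle P0, 309 for day 7 against day 1 effects and 52 for isolated against ventricle effects. With quantile normalization they were 4 at P4, 874 in ventricle at day 1, 15 at day 7, 1065 and 4226 in explants at 24 and 72 h, 2694 for fresh explants against adult ventricle, 975 for isolated against ventricle P0, 218 for day 7 against day 1 effects and 36 for isolated against ventricle effects. The share of called genes that were higher, under median-of-ratios scaling against the scaling as deposited, was 57.8% against 34.6% at P7, 48.8% against 23.5% in adults, 41.5% against 13.5% at day 1, 41% against 85.6% at 24 h, 45.3% against 83.8% at 72 h, 30.9% against 5.37% in fresh explants, 34.9% against 1.29% in isolated P0 cells, 75.1% against 95.8% for day 7 against day 1 effects, 86.5% against 50% for isolated against ventricle effects and 33.3% against 100% at P4.

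The differences that changed sign did not pass as deposited. They were Npr3 after resection in isolated cells (-0.067 with a pseudocount of 0.1, -0.12 with median-of-ratios, -0.14 with quantile), Nppb in adults (0.19 with median-of-ratios), Npr3 at day 1 (0.0010 and 0.018), Npr3 at day 7 (-0.0086 with quantile), Nppb at 24 h (-0.15 with median-of-ratios), Npr2 at 72 h (-0.53 and -0.48), Corin in isolated against ventricle P0 (0.089 and 0.057), and, for day 7 against day 1 effects, Corin (-0.18 and -0.19) and Npr3 (-0.027 with quantile). Leaving out each library in turn gave ranges through 0 for Npr2 (-0.23 to 0.13) and Corin (-0.32 to 0.14) at P4, Npr3 after resection in isolated cells (-0.50 to 0.30), Nppb (-0.99 to 0.57) and Npr2 (-0.045 to 0.35) in adults, Nppa (-0.26 to 0.905) and Nppb (-1.12 to 0.31) at day 1, Nppb at day 7 (-0.25 to 0.12), Nppb (-0.55 to 1.23) and Npr1 (-0.84 to 0.063) at 24 h, Nppb at 72 h (-1.23 to 0.35), Corin (-1.03 to 0.18) in fresh explants, Nppa in isolated P0 cells (-0.21 to 1.17), Nppb for day 7 against day 1 effects (-0.38 to 1.05) and Npr3 for isolated against ventricle effects (-0.63 to 0.18). Counts of called genes then ran from 0 to 1 at P4, 25 to 761 after resection in isolated cells, 581 to 1347 at P7, 217 to 3034 at day 1, 5 to 44 at day 7, 56 to 276 at 24 h, 2816 to 4826 in fresh explants, 4474 to 8523 in isolated P0 cells, 184 to 2662 for day 7 against day 1 effects and 5 to 205 for isolated against ventricle effects.

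The labels do not say that replicate numbers pair libraries. Deviations of same-numbered libraries correlated at 0.556 and 0.383 in explants, at -0.0824 to 0.425 in isolated cells (4 of 6 libraries correlated best with their own number in each comparison) and at -0.135 to -0.0282 in ventricle. With the replicate number as a block, 4920 genes were called at 24 h and 0 at P4, Nppa passed at 24 h (adjusted p = 0.0378) and Nppb passed in isolated against ventricle P0 (-1.23, adjusted p = 0.0486); the block changed no other member's call.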

Other observations

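The ratio of Nppb to Nppa within a library, which is free of any library-wide scaling, was 5.21 and 3.39 in explants at 0 h, against 0.0937 and 0.377 in adult ventricle. It was 1.24 and 0.929 in ventricle at day 7 after resection, against 2.56 and 2.30 after sham surgery. In isolated cells at day 7 it was 0.183, 0.0814 and 0.323 after resection, against 0.90, 0.494 and 0.543 after sham surgery. In each of these 3 pairs the groups did not overlap; the ratios were picked after their values were seen and were not tested.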
